A study of Homo sapiens with 3 samples.

Results

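Transcript levels of 10 genes were examined in Cal62 cells silenced for ADAR1. The genes encode kinases and cyclins that act on RNA polymerase II: CDK13, CDK12 and their cyclin CCNK, CDK7 with CCNH, CDK9 with CCNT1 and CCNT2, and CDK8 with CDK19. They were chosen by name, as the rows of the gene table whose Ensembl identifiers map to these symbols. All 10 were found among the 58333 genes of the table, and all 10 passed the filter on low values (a mean of at least 10 normalized counts), as did 20247 genes in all. Cal62 is a human thyroid cancer cell line, and every library came from this 1 line. The cells were grown in DMEM with 10% fetal bovine serum and transfected by Lipofectamine RNAimax with a negative control siRNA of the Silencer Select series (siControl) or with 1 of 2 siRNAs against ADAR1 (siADAR1 #1 and siADAR1 #2). Poly(A)+ RNA from 2 biological replicates per transfection was sequenced, which gives 6 libraries. When RNA was isolated after transfection is not given in the sources used here.

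RNA polymerase II carries a long tail of repeats, its C-terminal domain (CTD), which is phosphorylated at successive steps of transcription. CDK7, with cyclin H in the general factor TFIIH, acts at initiation. CDK9, with cyclin T1 or T2 in P-TEFb, releases the paused polymerase, and CDK12 and CDK13, each bound to cyclin K, act during elongation and RNA processing. CDK8 and its paralog CDK19 bind cyclin C in a module that attaches reversibly to Mediator, the bridge between transcription factors and the polymerase. ADAR1 converts adenosine to inosine in double-stranded RNA, and inosine is read as guanosine.

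CDK13 is the gene among the 10 whose editing the study followed up after a search over the transcriptome. A stretch of its coding sequence is therefore shown. It lies in exon 1 of 14 of the MANE Select transcript ENST00000181839.10, at chr7:39950936-39950962 on the plus strand of GRCh38. The capital marks the adenosine at position 39950949, coding base 308.
CDK13 coding window: gcaggagggcggcAgaagcggcgtcgc
The capital is the middle base of codon 103 of 1512, a glutamine codon that becomes an arginine codon when this base is read as guanosine. The codon was located as the first of 3 glutamine codons in CDK13 that have an arginine or lysine codon on both sides. The window holds 27 bases with a GC content of 77.8%. The gene table gives 1 value per gene and library and no editing level, so the values below are levels of the whole CDK13 transcript, edited or not.

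The gene counts of a library summed to 30114840 (siADAR1 #2 replicate 2) to 50029763 reads (siADAR1 #1 replicate 1), and 3 reads corresponded to 2.81 to 4.39 normalized counts. The deposited log2 values were read as variance-stabilized counts, a transformation inferred from the values and not stated in the sources used here. Normalized counts, meaning reads divided by the size factor of the library, were recovered from them. ADAR, the targeted gene, had 10906 and 11701 normalized counts with siControl, 1328 and 2246 with siADAR1 #1, and 1663 and 2928 with siADAR1 #2. It fell with siADAR1 #1 (log2FC -2.71, adjusted p = 0.00355) and with siADAR1 #2 (log2FC -2.35, adjusted p = 0.00153; limma with Benjamini-Hochberg adjustment). Of the thyroid markers, PAX8 ranged from 2542 to 15868 normalized counts, and NKX2-1 was at 0 in all 6 libraries. The summed level of the 8 thyroid markers, 5 of which passed the filter, was 16292 to 18143 in siControl, 12849 to 17806 in siADAR1 #1 and 4692 to 7475 in siADAR1 #2 cells. The 4 epithelial keratins were present in every library and summed to 130252 to 177939 in siControl, 205233 to 299133 in siADAR1 #1 and 102146 to 113747 in siADAR1 #2 cells. The 5 leukocyte markers, of which 1 passed the filter and CD3E was at 0 in all 6 libraries, summed to 39.8 to 47.9, 124 to 134 and 27.2 to 30.8 normalized counts in the same order. The 4 endothelial markers, of which 3 passed the filter, summed to 93.8 to 118, 169.6 to 174 and 104 to 128. In bulk RNA, fewer cells expressing a gene and less RNA per cell cannot be told apart.

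A gene was called when its adjusted p was under 0.05 and its log2FC was beyond 0.5 in either direction, the thresholds that the study used. None of the 10 genes was called with siADAR1 #1 against siControl, where 17.4% of all genes tested were called. With siADAR1 #2, 1 of the 10 was called, CDK8, against 27.5% of all genes. CDK8 was also the 1 gene of the 10 called between the siRNAs, against 33.7% of all genes (16.5% higher and 17.3% lower with siADAR1 #1). The comparisons with siControl share the same 2 siControl libraries. The p-values rest on the spread between the 2 libraries of a condition, pooled over the 3 conditions in 1 fit. This spread is not that of the gene alone: limma draws it toward the spread of other genes at a similar level. The median log2FC of the 10 genes was 0.18 with siADAR1 #1 and 0.06 with siADAR1 #2, beside -0.03 and -0.02 over all genes tested. When the 4 siADAR1 libraries were treated as 1 group, 0 of the 10 and 0 of all genes (0%) were called by limma. In that fit, 2869 genes (14.2%) had an unadjusted p under 0.05. ADAR itself was not called there (log2FC -2.53, limma adjusted p = 0.0881, unadjusted p = 1.28e-04). The fit counts differences between the siRNAs as spread, and the part of this in the missed call of ADAR was not tested. As it did not call the targeted gene, this fit cannot show that the 10 genes were unchanged. Averaging both siRNA effects of the 3-group fit called ADAR (adjusted p = 0.00283) and 0 of the 10.

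**Figure D1:**
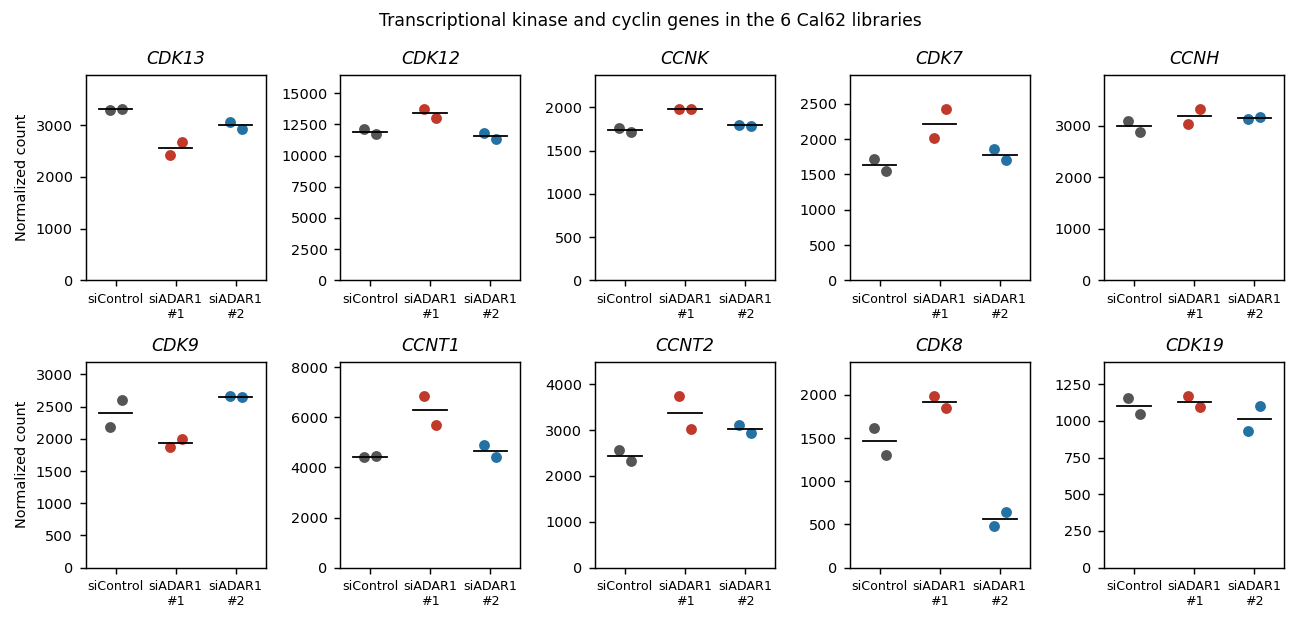
Normalized counts (linear axes starting at 0) of the 10 genes in the 6 libraries; each point is 1 library and each bar the mean of the 2 libraries of a condition. CDK8 is at 488 and 642 with siADAR1 #2 and at 1305 or more in the other 4 libraries.

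CDK8 was the gene of this group with the largest difference. It had 1617 and 1305 normalized counts with siControl, 1985 and 1843 with siADAR1 #1, and 488 and 642 with siADAR1 #2. Both siADAR1 #2 libraries were below every other library, and both siADAR1 #1 libraries were above both siControl libraries. How many of all genes show such an order for a single siRNA was not counted, here or below. CDK8 fell with siADAR1 #2 to 38.6% of siControl on the log2 scale (log2FC -1.37 ± 0.18 SE, n = 2 per condition, 95% interval -1.79 to -0.95, limma adjusted p = 0.00161). It was called in all 14 alternative analyses, and leaving out any 1 library gave log2FC values from -1.57 to -1.18. With siADAR1 #1 the log2FC was 0.40 ± 0.18 (adjusted p = 0.173), which did not pass the test. The siRNAs differed directly: CDK8 was 3.41-fold higher with siADAR1 #1 than with siADAR1 #2 (log2FC 1.77 ± 0.18, adjusted p = 5.15e-04), and this difference was called in all 14 alternatives. With the 4 siADAR1 libraries as 1 group, the log2FC was -0.49 (adjusted p = 0.771, in a range of 0.0628 to 0.987 over the alternatives). As given above, ADAR was not called in this fit either. By the sums given above, the thyroid markers were also lower in the siADAR1 #2 libraries, and the keratins and leukocyte markers, like CDK8, were highest with siADAR1 #1 and lowest with siADAR1 #2 without overlap. The part of these markers in the CDK8 difference was not tested.

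CDK19, the paralog of CDK8, had 1156 and 1051 normalized counts with siControl, 1169 and 1094 with siADAR1 #1, and 929 and 1104 with siADAR1 #2. The 3 conditions overlapped. Its log2FC was 0.04 ± 0.15 with siADAR1 #1 (95% interval -0.31 to 0.38, adjusted p = 0.890) and -0.12 ± 0.15 with siADAR1 #2 (interval -0.46 to 0.22, adjusted p = 0.580). The direction of both values changed in some alternatives. CCNC, the gene of cyclin C that both kinases bind, had 1910 and 2071 normalized counts with siControl, 3815 and 3786 with siADAR1 #1, and 4956 and 4453 with siADAR1 #2. Every siADAR1 library was above both siControl libraries, as for 12.0% of all genes tested. CCNC rose with siADAR1 #1 (log2FC 0.93 ± 0.12, limma adjusted p = 0.00410) and with siADAR1 #2 (log2FC 1.24 ± 0.12, adjusted p = 5.61e-04). The call with siADAR1 #1 was lost without siControl replicate 1, where the log2FC was 0.88. Of all genes tested, 1.86% were called higher with each siRNA.

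CDK13 had 3289 and 3314 normalized counts with siControl, 2415 and 2682 with siADAR1 #1, and 3064 and 2929.5 with siADAR1 #2. All 4 siADAR1 libraries were below both siControl libraries, a position that 17.0% of all genes tested shared. The mean was 77.2% of siControl with siADAR1 #1 and 90.8% with siADAR1 #2. The log2FC with siADAR1 #1 was -0.38 ± 0.12 SE (95% interval -0.64 to -0.11), and the adjusted p of 0.0596 by limma did not pass the threshold. Its unadjusted p was 0.0124, and over the alternatives the adjusted p ran from 0.0428 to 0.234 while the log2FC stayed within 0.5. With siADAR1 #2 the log2FC was -0.14 (interval -0.41 to 0.13, adjusted p = 0.406). The siRNAs differed by -0.24 (interval -0.50 to 0.03, adjusted p = 0.150), so a difference between them was not detectable here. 

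CDK12, the paralog of CDK13, had 12139 and 11718 normalized counts with siControl, 13746 and 13004 with siADAR1 #1, and 11822 and 11314 with siADAR1 #2. Both siADAR1 #1 libraries were above both siControl libraries, and the siADAR1 #2 libraries overlapped with siControl. The log2FC was 0.16 with siADAR1 #1 (95% interval -0.06 to 0.39, adjusted p = 0.290) and -0.04 with siADAR1 #2 (interval -0.27 to 0.19, adjusted p = 0.775). CCNK, the cyclin that both kinases need, had 1759 and 1718 normalized counts with siControl, 1983 and 1977 with siADAR1 #1, and 1798 and 1788 with siADAR1 #2. Every siADAR1 library was above both siControl libraries, as for 12.0% of all genes tested. The log2FC of CCNK was 0.19 (adjusted p = 0.302) with siADAR1 #1 and 0.05 (adjusted p = 0.804) with siADAR1 #2. Exons of CCNK overlap CCDC85C on the opposite strand over 4893 bases. The level of CCDC85C was 50.5% of that of CCNK, and the strand setting of the counting is not given in the sources used here, so reads of these genes may not be fully separated.

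CDK7, the kinase of TFIIH, had 1726 and 1542 normalized counts with siControl, 2011 and 2429 with siADAR1 #1, and 1854 and 1702 with siADAR1 #2. The siADAR1 #1 libraries were the highest, and the siADAR1 #2 libraries overlapped with siControl. The log2FC with siADAR1 #1 was 0.44 ± 0.14 (95% interval 0.10 to 0.77), with a limma adjusted p of 0.0734. It passed both thresholds with median-centred libraries (log2FC 0.58) and with quantile-normalized libraries (0.54), and the adjusted p ran from 0.0230 to 0.267 over the alternatives. With siADAR1 #2 the log2FC was 0.12 (adjusted p = 0.568). CCNH, the cyclin of CDK7, had 3096 and 2889 normalized counts with siControl, 3035 and 3330.04 with siADAR1 #1, and 3142 and 3169.8 with siADAR1 #2. Its conditions lay close together, with log2FC values of 0.09 (95% interval -0.18 to 0.36) and 0.08 (interval -0.19 to 0.34). Exons of CCNH overlap RASA1 on the opposite strand over 771 bases, and RASA1 was at 142% of the level of CCNH. Reads of these genes may therefore not be fully separated either. This limit also holds for the level per kilobase and the ratio of CCNH given below.

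CDK9 had 2189.9 and 2604 normalized counts with siControl, 1877 and 2004 with siADAR1 #1, and 2664 and 2645 with siADAR1 #2. The siADAR1 #1 libraries were the lowest and the siADAR1 #2 libraries the highest. Against siControl, the log2FC was -0.30 with siADAR1 #1 (95% interval -0.60 to 0.0028, adjusted p = 0.154) and 0.15 with siADAR1 #2 (interval -0.15 to 0.46, adjusted p = 0.424). Between the siRNAs the log2FC was -0.45 ± 0.13 (limma adjusted p = 0.0287), past the threshold on p and not past that on size. CDK9 was therefore not called there, although quantile normalization gave a called value of -0.51, with adjusted p-values from 0.0206 to 0.115 over the alternatives.

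CCNT1, the main cyclin of P-TEFb, had 4417 and 4445 normalized counts with siControl, 6843 and 5712 with siADAR1 #1, and 4912 and 4419 with siADAR1 #2. Both siADAR1 #1 libraries were above the other 4, and the siADAR1 #2 libraries overlapped with siControl. The log2FC with siADAR1 #1 was 0.50 ± 0.13 (95% interval 0.20 to 0.79, limma adjusted p = 0.0333), which missed the call because the value, 0.496 before rounding, lay just within 0.5. It was called with median-centred libraries (0.64), with quantile-normalized libraries (0.55), with voom on the recovered reads (0.501) and without siADAR1 #1 replicate 2 (0.63). The siRNAs differed by 0.42 (adjusted p = 0.0335, not called), and this became a call with median-centred libraries (0.53) and without siADAR1 #1 replicate 2 (0.55). With siADAR1 #2 the log2FC was 0.07 (adjusted p = 0.713). CCNT2, the paralog of CCNT1, had 2556 and 2320.4 normalized counts with siControl, 3739 and 3015 with siADAR1 #1, and 3121 and 2925 with siADAR1 #2. Every siADAR1 library was above both siControl libraries, a position shared by 12.0% of all genes tested. Its log2FC was 0.46 ± 0.14 with siADAR1 #1 (95% interval 0.14 to 0.79, adjusted p = 0.0572) and 0.31 ± 0.14 with siADAR1 #2 (interval -0.02 to 0.64, adjusted p = 0.137). The value with siADAR1 #1 passed as a call with median-centred libraries (0.60), with quantile-normalized libraries (0.54) and without siADAR1 #1 replicate 2 (0.62). With the replicate block, the limma adjusted p of CCNT2 with siADAR1 #1 was 0.0286 at the same log2FC. That passed the threshold on p and not that on size.

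**Figure D2:**
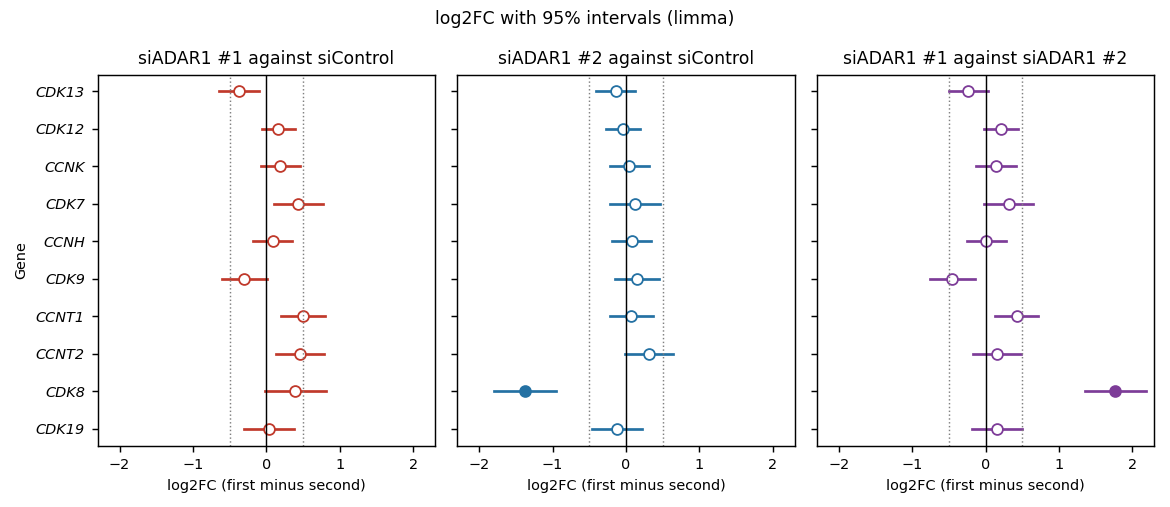
log2FC of the 10 genes (horizontal axis, first condition minus second) with 95% intervals from limma in 3 comparisons; filled points were called, and dotted lines mark 0.5 and -0.5. Only CDK8 is filled, at -1.37 with siADAR1 #2 and at 1.77 between the siRNAs.

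Levels were compared between genes per kilobase of the MANE Select transcript. In siControl the highest mean was that of CCNH with 2338 normalized counts per kilobase, followed by CDK12 with 1439, CDK7 with 1146, CDK9 with 965, CCNT1 with 653, CCNK with 493, CDK8 with 477, CCNT2 with 352, CDK13 with 347 and CDK19 with 172. The highest was 13.6 times the lowest. The ranges of the 2 libraries overlapped for CCNK and CDK8 and for CCNT2 and CDK13, and the other neighbours in this order lay apart. With siADAR1 #1, CCNT1 (925 per kilobase) stood above CDK9 (781), in the reverse of their order in siControl, and CDK12 and CDK7 overlapped. With siADAR1 #2, CDK8 (184 per kilobase) was the ninth, and its range overlapped with that of CDK19 (159). The order depends on the length used: per kilobase of all annotated exons, a choice made after the data were seen, CCNH was the fifth in siControl and CDK12 the first.

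Ratios within a library, formed from the same values per kilobase, describe the balance between partners and paralogs and were not tested. The ratio of CDK12 to CDK13 was 4.24 and 4.06 with siControl, 6.54 and 5.57 with siADAR1 #1, and 4.44 in each siADAR1 #2 library. The siADAR1 #1 libraries were the highest. CCNK stood at 0.276 and 0.277 times the sum of CDK12 and CDK13 with siControl, at 0.294 and 0.303 with siADAR1 #1 and at 0.292 and 0.303 with siADAR1 #2. The ratio of CCNH to CDK7 was 2.00 and 2.09 with siControl, 1.68 and 1.53 with siADAR1 #1, and 1.89 and 2.07 with siADAR1 #2. It was lowest with siADAR1 #1, without overlap. The size of these ratios depends on the length used. Per kilobase of all annotated exons, a choice made after the data were seen, the mean ratio of CDK12 to CDK13 was 6.90 with siControl, 10.1 with siADAR1 #1 and 7.37 with siADAR1 #2. That of CCNH to CDK7 was then 0.741, 0.582 and 0.718, below 1 in every condition, and CCNK stood at 0.201, 0.213 and 0.216.

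The P-TEFb cyclins were highest relative to their kinase with siADAR1 #1. The sum of CCNT1 and CCNT2 was 1.16 and 0.944 times CDK9 with siControl, 2.05 and 1.58 times with siADAR1 #1, and 1.09 and 1.01 times with siADAR1 #2. The siADAR1 #1 libraries lay above the other 4. In the Mediator module, CDK8 stood at 2.92 and 2.59 times CDK19 with siControl, at 3.55 and 3.52 times with siADAR1 #1, and at 1.10 and 1.21 times with siADAR1 #2. CCNC relative to the sum of CDK8 and CDK19 was 1.25 and 1.63 with siControl, 2.13 and 2.28 with siADAR1 #1, and 7.57 and 5.42 with siADAR1 #2. The 3 conditions did not overlap in either Mediator ratio. Per kilobase of all annotated exons, the mean of CCNC relative to CDK8 and CDK19 was 0.793 with siControl, 1.23 with siADAR1 #1 and 3.39 with siADAR1 #2. CDK8 stood at 2.13, 2.73 and 0.892 times CDK19, and the P-TEFb cyclins at 1.10, 1.90 and 1.09 times CDK9.

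**Figure D3:**
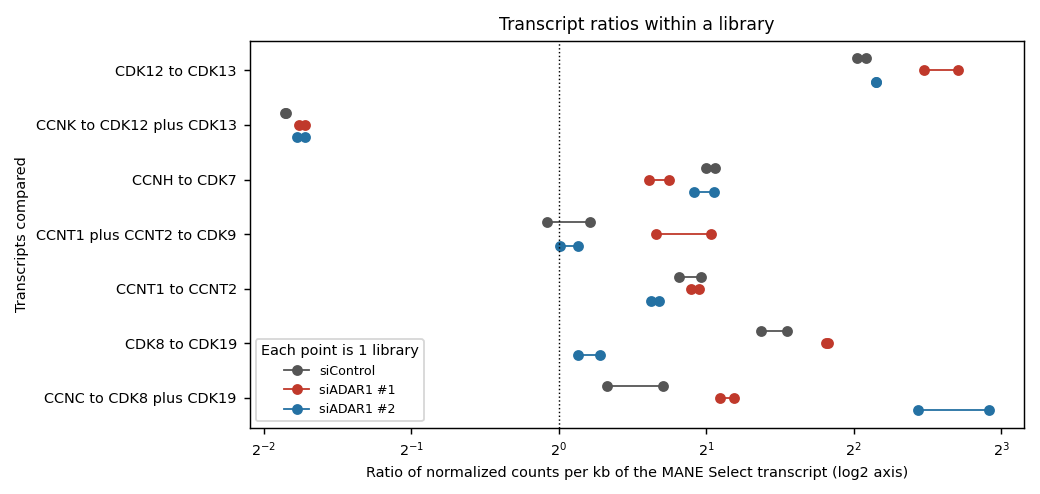
Ratios of normalized counts per kilobase of the MANE Select transcript (log2 axis); each point is 1 library and each line joins the 2 libraries of a condition. The ratio of CCNC to CDK8 plus CDK19 is 5.42 and 7.57 in the siADAR1 #2 libraries, against 1.25 and 1.63 in the siControl libraries.

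The genes whose log2 values followed CDK13 most closely over the 6 libraries were ST7, CCT6B, GNPAT, HS3ST3A1 and E2F8, with Pearson correlations of 0.997, 0.997, 0.996, 0.996 and 0.996, the highest among 20246 other genes tested. These correlations describe 6 libraries that fall into 3 conditions, and no test was made. E2F8 had 1699 and 1724 normalized counts with siControl, 425 and 721 with siADAR1 #1, and 1283 and 932 with siADAR1 #2. ST7 had 1452 and 1448 with siControl, 551 and 719 with siADAR1 #1, and 1089.7 and 977 with siADAR1 #2. HS3ST3A1 was low, at 3.7 to 24.5 normalized counts over the 6 libraries, and CCT6B was at 17.8 to 63.2. In these genes, as in CDK13, the siADAR1 #1 libraries were the lowest and the siADAR1 #2 libraries lay between them and siControl. This shared order follows from choosing the genes by their correlation with CDK13 in the same libraries.

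Other genes of the same pathway were counted in lists, all of whose members were tested. The counts with siADAR1 #1 depended on single libraries: over all genes, 3518 were called, and omitting siControl replicate 1, siControl replicate 2 or siADAR1 #1 replicate 1 gave counts of 312, 1165 and 1291. Calls with siADAR1 #2 numbered 5573, with 3152 without siControl replicate 1 and 3105 without siADAR1 #2 replicate 1. Without siControl replicate 1, no gene of these lists was called with siADAR1 #1 apart from the short-lived transcript MCL1. Counts in each direction can be read against the shares over all genes, 6.39% called higher and 11.0% called lower with siADAR1 #1, and 11.6% and 16.0% with siADAR1 #2. In a fit without a mean-variance trend, the calls of CDK11A, ERCC2, HEXIM1, MEPCE, RTF1, POLR2I, CTDSPL, SSU72, RPRD1A, BRCA1, MDC1, JUN and KLF6 with siADAR1 #1 were lost, as were those of CCNL1, MED12, CDK10, EAF2, POLR2K, ATM and IER2 with siADAR1 #2. Genes named here outside the rule for named genes were chosen after their values were seen.

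Of 11 kinase partners, the other subunits of these complexes and the other kinases and cyclins of RNA polymerase II, 2 rose with siADAR1 #1 and 0 fell. They were CCNC and CDK11A, which is nearly identical to CDK11B, so that its count is uncertain. The call of CDK11A was lost in 9 of the 14 alternatives, among them the omission of any 1 library. With siADAR1 #2, 4 rose and 1 fell. CCNL2 (log2FC 0.57, limma adjusted p = 0.00805) and CCNL1 (0.75, adjusted p = 0.0164), which encode L-type cyclins linked to splicing, rose with siADAR1 #2, as did CCNC and CDK10. The call of CDK10 was also lost in 9 of the 14 alternatives. The list held 3 calls with siADAR1 #2 without siControl replicate 1 and 2 without siADAR1 #2 replicate 1. With a replicate block it held 6, the added gene being MED12L (log2FC -0.51, adjusted p = 0.0253, in a range of 0.0253 to 0.322 over the alternatives). MED12, which activates the CDK8 module, fell with siADAR1 #2 (log2FC -0.60, adjusted p = 0.0125). The call of CCNL2 was lost without siADAR1 #2 replicate 1 (0.51), that of CCNL1 without siControl replicate 2 (0.49) or siADAR1 #2 replicate 1 (0.64), and that of MED12 without siControl replicate 1 (-0.53) or siADAR1 #2 replicate 2 (-0.54), or with quantile normalization (-0.46). CCNL1 (-0.88) and CCNL2 (-0.74) were lower with siADAR1 #1 than with siADAR1 #2 (adjusted p = 0.00674 and 0.00210). Without siADAR1 #2 replicate 1 the call of CCNL1 between the siRNAs was lost (-0.77). MNAT1, the assembly factor of CDK7 and cyclin H, had 1369 to 2217 normalized counts over the 6 libraries and was not called.

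Of 7 TFIIH core subunits, 1 fell with siADAR1 #1 and 0 were called with siADAR1 #2. ERCC2, the XPD helicase, fell with siADAR1 #1 (log2FC -0.83, limma adjusted p = 0.0105) and had a log2FC of 0.46 with siADAR1 #2 (adjusted p = 0.0478, not called). Its level was lower with siADAR1 #1 than with siADAR1 #2 (log2FC -1.29, adjusted p = 6.96e-04). The call against siControl was lost without siControl replicate 1 (-0.75), siControl replicate 2 (-0.90) or siADAR1 #1 replicate 1 (-0.77). GTF2H1 and ERCC3 had log2FC values of 0.49 and -0.45 with siADAR1 #2, both within 0.5. Leaving out siControl replicate 1 made GTF2H1 a call with siADAR1 #2 (0.61), and leaving out siADAR1 #2 replicate 2 made ERCC2 one (0.60). So did quantile normalization for both (GTF2H1 0.64, ERCC2 0.62) and median centring for GTF2H1 (0.53).

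Of 14 regulators of P-TEFb and members of the super elongation complex, 2 rose and 2 fell with siADAR1 #1, and 3 rose and 0 fell with siADAR1 #2. HEXIM1, which holds P-TEFb in its inactive form, and EAF1 rose with siADAR1 #1 (log2FC 0.53 and 0.69, limma adjusted p = 0.0166 and 0.00956). MLLT1 (-1.41, adjusted p = 0.00366), which reads acylated histones, and MEPCE (-0.55, adjusted p = 0.0439), which caps 7SK RNA, fell, although the call of MEPCE was lost in 10 of the 14 alternatives. AFF4 (0.59, adjusted p = 0.00413), the scaffold of the super elongation complex, EAF2 and MLLT3 rose with siADAR1 #2. Without siControl replicate 1 the calls of MLLT1 (-1.37) and EAF1 (0.74) were lost, and without siControl replicate 2 that of EAF1 (0.65). Omitting siControl replicate 2 left 1 call of the list with siADAR1 #1, and omitting siADAR1 #1 replicate 1 left 2. With siADAR1 #2 it held 1 call without siControl replicate 2 or without siADAR1 #2 replicate 1.

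Of 13 genes of NELF, DSIF and the PAF complex, counted with the elongation factor SUPT6H, 1 fell with each siRNA. Their products pause the polymerase or accompany it. RTF1 fell with siADAR1 #1 (log2FC -0.51, limma adjusted p = 0.0189), close to the threshold on size, and the call was lost without siControl replicate 1 (-0.51), siControl replicate 2 (-0.52) or siADAR1 #1 replicate 1 (-0.51), and also with median centring (-0.37) or quantile normalization (-0.45). SUPT5H, the large subunit of DSIF, fell with siADAR1 #2 (-0.73, adjusted p = 0.00354). It was higher with siADAR1 #1 than with siADAR1 #2 (0.96, adjusted p = 9.21e-04), as was NELFE (0.73, adjusted p = 0.00172). Without siControl replicate 2, 3 genes of the list were called with siADAR1 #2.

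Of 13 RNA polymerase II subunits, 2 fell with siADAR1 #1 and 3 with siADAR1 #2, and 0 rose with either. POLR2A, the catalytic subunit that carries the CTD, had 37399 and 32675 normalized counts with siControl, 36314 and 37437 with siADAR1 #1, and 14783 and 18734 with siADAR1 #2. It fell with siADAR1 #2 (log2FC -1.07 ± 0.14, limma adjusted p = 0.00144) and was higher with siADAR1 #1 than with siADAR1 #2 (1.15, adjusted p = 8.03e-04). POLR2H (-0.65, adjusted p = 0.00458) and POLR2K also fell with siADAR1 #2, the latter with its call lost in 8 of the 14 alternatives. POLR2I became a call with siADAR1 #2 in the fit with a replicate block (-0.56, adjusted p = 0.0450, in a range of 0.0269 to 0.322). POLR2D (-0.97, adjusted p = 0.00587) and POLR2I fell with siADAR1 #1, and the call of POLR2D was lost without siControl replicate 1 (-1.01). Between the siRNAs, 6 of the 13 were called, against 33.7% of all genes. The median log2FC of the list was -0.36 with siADAR1 #2, beside -0.02 over all genes, and 0.06 with siADAR1 #1.

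Of 11 CTD phosphatases and readers, 1 rose and 2 fell with siADAR1 #1, and 0 rose and 4 fell with siADAR1 #2. CTDSPL, a small CTD phosphatase, fell with siADAR1 #1 (log2FC -0.61, limma adjusted p = 0.0232) and with siADAR1 #2 (-0.83, adjusted p = 0.00412). Of all genes tested, 3.55% were called lower with each siRNA. RPRD2 (-1.60, adjusted p = 5.61e-04), which binds the CTD, CTDSP1 (-1.39, adjusted p = 0.00103) and RPAP2 (-0.84, adjusted p = 0.00775), a CTD phosphatase, fell with siADAR1 #2. SSU72 fell and RPRD1A rose with siADAR1 #1. The call of CTDSPL with siADAR1 #1 was lost without siControl replicate 1 (-0.63), siControl replicate 2 (-0.59) or siADAR1 #1 replicate 1 (-0.52), and also with median centring (-0.47) or quantile normalization (-0.45). Without any 1 of these 3 libraries, no gene of the list was called with siADAR1 #1. The call of RPAP2 with siADAR1 #2 was lost without siControl replicate 1 (-0.67) or siADAR1 #2 replicate 1 (-0.71).

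**Figure D4:**
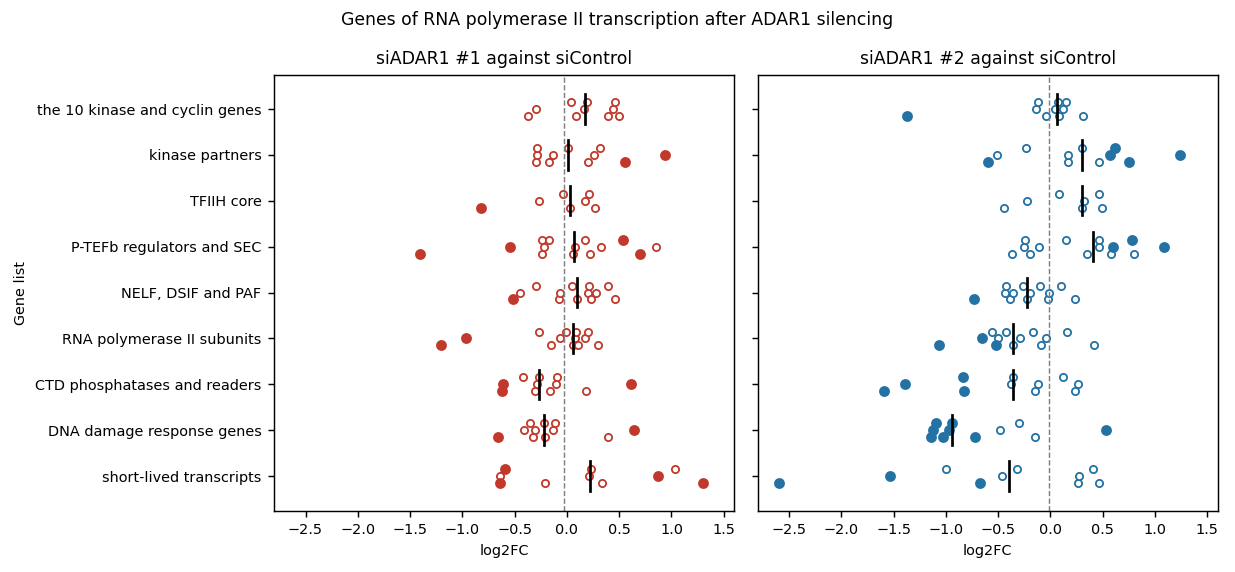
log2FC of each gene (horizontal axis) in the 10 kinase and cyclin genes and in 8 lists of related genes, with siADAR1 #1 (left) and siADAR1 #2 (right) against siControl; filled points were called, black bars are medians and the dashed line is the median of all genes tested. The DNA damage response genes have a median of -0.95 with siADAR1 #2 and -0.22 with siADAR1 #1.

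The DNA damage response genes include long genes known to depend on CDK12. Of the 11, 1 rose and 1 fell with siADAR1 #1, and 1 rose and 7 fell with siADAR1 #2. The median log2FC was -0.22 with siADAR1 #1 and -0.95 with siADAR1 #2. BRCA1, which acts in repair by homologous recombination, had 6025 and 6359 normalized counts with siControl, 3431 and 4486 with siADAR1 #1, and 2918 and 2878 with siADAR1 #2. Every siADAR1 library was below both siControl libraries, as for 17.0% of all genes tested. It fell with siADAR1 #1 (log2FC -0.66 ± 0.14, limma adjusted p = 0.0201) and with siADAR1 #2 (-1.09 ± 0.14, adjusted p = 0.00164). FANCD2 (-1.02, adjusted p = 7.36e-04) of the Fanconi pathway and the checkpoint kinase CHEK1 (-1.12, adjusted p = 0.00106) fell with siADAR1 #2, as did FANCI, RAD51C, BARD1 and MDC1. ATM rose with siADAR1 #2 (0.53, adjusted p = 0.0140).

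MDC1, a scaffold at DNA breaks, moved in opposite directions. It had 5776 and 4922 normalized counts with siControl, 8272 and 8335 with siADAR1 #1, and 2675 and 2763 with siADAR1 #2. It rose with siADAR1 #1 (log2FC 0.64, limma adjusted p = 0.0117), fell with siADAR1 #2 (-0.97, adjusted p = 0.00121) and differed between them (1.61, adjusted p = 2.12e-04). Of all genes tested, 1.62% were called in opposite directions. The calls with siADAR1 #1 were lost without siControl replicate 1 (BRCA1 -0.70, MDC1 0.75), without siControl replicate 2 (BRCA1 -0.62, MDC1 0.52) and without siADAR1 #1 replicate 1 (BRCA1 -0.46, MDC1 0.64).

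Of 10 short-lived transcripts known to respond to CDK9 inhibition, 2 rose and 2 fell with siADAR1 #1, and 0 rose and 3 fell with siADAR1 #2. MCL1, an anti-apoptotic BCL2 family member, rose with siADAR1 #1 (log2FC 0.87, limma adjusted p = 0.00366), as did JUNB, while JUN and KLF6 fell. FOSL1 (-2.60, adjusted p = 8.65e-04) and FOS (-1.54, adjusted p = 0.00152), subunits of the transcription factor AP-1, fell with siADAR1 #2, as did IER2. MYC was called with neither siRNA. FOSL1 had 21271 and 21515 normalized counts with siControl, 11113 and 17007 with siADAR1 #1, and 2642 and 4727 with siADAR1 #2. Its log2FC with siADAR1 #1 was -0.64 (adjusted p = 0.163), and it became a call in the fit with a replicate block (adjusted p = 0.0396, in a range of 0.0396 to 0.574 over the alternatives). EGR1 became a call in that fit with siADAR1 #2 (-1.002, adjusted p = 0.0440, in a range of 0.00502 to 0.581). The list held 1 call with siADAR1 #1 (MCL1) when siControl replicate 1 was left out, and 2 when siControl replicate 2 or siADAR1 #1 replicate 1 was. Between the siRNAs, 7 of the 10 were called, 6 of them higher with siADAR1 #1, against 33.7% of all genes called and 16.5% called higher.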

How the data were processed

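Poly(A)+ RNA of Cal62 cells was measured in 6 libraries made with the KAPA mRNA HyperPrep kit (NextSeq 500, 75-bp paired-end reads), 2 for each of 3 transfections. The labels name 1 sample per transfection, and its 2 columns were taken as the 2 replicates that the study's methods describe. In the bcbio-nextgen pipeline, the authors removed adapters (Atropos), counted reads per gene with featureCounts, estimated transcript levels with Salmon in parallel, and normalized by gene with DESeq2, preferring Salmon-based estimates. Which of these counts underlie the deposited values is not given in the sources used here. The submitters' processing notes name FastQC, featureCounts, Salmon and GRCh38, and the aligner used for the counts is not given in the sources used here. The deposited values are log2 values. They were read as variance-stabilized counts, since undoing that curve gave whole reads for 100% of values within 0.1, and 0 columns were left unused. Limits from 3 reads cover counting error only.

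Genes with a mean of at least 10 normalized counts entered a limma fit (version 3.58.1, R 4.3.3, lmFit, eBayes with trend, 3 residual degrees of freedom with 3 groups and 4 with the siADAR1 libraries as 1 group), two-sided, with Benjamini-Hochberg adjustment over 20247 genes. The fit was tested on simulated data. Symbols and lengths came from GENCODE release 44 (57830 of 58333 identifiers matched).

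The members and lists were chosen with earlier results of these data known. The genes named were the 10 members, ADAR, from each list those that each siRNA moved the same way past both thresholds and up to 3 more with the smallest adjusted p-values, and the 5 most correlated with CDK13. The lists were kinase partners, TFIIH core, P-TEFb regulators with the super elongation complex, NELF with DSIF and PAF, RNA polymerase II subunits, CTD phosphatases and readers, DNA damage response genes and short-lived transcripts, with markers of thyroid, keratins, leukocytes and endothelium.

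Replicate numbers of the columns were checked for pairing: the difference between replicate 2 and replicate 1 correlated at 0.111, 0.130 and 0.150 between the 3 pairs of conditions over 20247 genes, each above 0.1. A fit with the replicate block was therefore made beside the unblocked one. The p-values and calls given come from the unblocked fit, except under the alternatives or where a replicate block is named. Alternatives were no filter, a filter at 50, median centring, quantile normalization, no trend, 4 libraries only, the mean of both siRNA effects from the 3-group fit, voom on recovered reads and each library left out.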

Additional observations from a re-analysis of the deposited data

Results flagged for a closer look

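CDK8 differed between the siRNAs that target the same gene. Its log2FC was 0.40 with siADAR1 #1 and -1.37 with siADAR1 #2, a difference of 1.77 that was tested directly with limma (adjusted p = 5.15e-04 with Benjamini-Hochberg adjustment). The adjusted p ran from 2.61e-04 to 0.00821 over 14 alternatives. Both libraries of siADAR1 #1 were above, and both libraries of siADAR1 #2 below, the 2 siControl libraries. Among all genes tested, 33.7% were called between the siRNAs.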

How the results depend on the processing

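With the siADAR1 libraries as 1 group, the count of genes called was 3601 when both siRNA effects of the 3-group fit were averaged, 4 without a trend and 1 with voom. With siADAR1 #1 it was 1478 without a trend and 312 to 3596 with each library left out, and with siADAR1 #2 the latter range was 3105 to 5743. Of the 10 genes, 3 were called with siADAR1 #1 after median centring, 3 after quantile normalization, 1 with voom and 0 to 2 with a library left out. Between the siRNAs, 2 were called after median centring, 2 after quantile normalization and 1 to 2 with a library left out. The replicate block changed the call of FOSL1 with siADAR1 #1 (adjusted p = 0.0396, the lowest of a range up to 0.574) and, with siADAR1 #2, those of MED12L, POLR2I and EGR1, and no other call of a gene of the lists.

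Median centring moved the median log2FC of all genes with siADAR1 #1 from -0.03 to 0.11. Small log2FC values changed sign, none of them called. With the siRNAs as 1 group, CDK9 was 0.016 and CDK19 0.047 after median centring, and 0.050 and 0.10 after quantile normalization. After quantile normalization with siADAR1 #2, CDK13 was 0.0094, CDK12 0.10 and CDK19 0.022, and CCNH between the siRNAs was -0.068. With siADAR1 #1, CCNL1 was 0.0074, ERCC3 0.10, CTDSP1 0.033 and FANCD2 0.031 after median centring, and ERCC3 was 0.042 and CTDSP1 6.39e-04 after quantile normalization. With each library left out, the ranges that crossed 0 were, with siADAR1 #1, CDK19 from -0.032 to 0.11, CCNL1 from -0.39 to 0.12, ERCC3 from -0.13 to 0.051, POLR2A from -0.020 to 0.17, CTDSP1 from -0.23 to 0.017 and FOS from -0.031 to 0.45. With siADAR1 #2 they were CCNT1 from -0.0038 to 0.15 and CDK19 from -0.25 to 0.0028. Between the siRNAs they were ADAR from -0.76 to 0.054, CCNH from -0.057 to 0.077 and CCNT2 from -0.0031 to 0.31, and with the siRNAs as 1 group CDK9 from -0.20 to 0.051 and CDK19 from -0.11 to 0.027. The cause was not tested. Of the values of the 10 genes under the alternatives, 530 kept direction and side of the threshold, 12 became calls and 18 changed sign. The filters, the fit without a trend, 4 libraries only, the averaged siRNA effects and the replicate block leave the log2FC as it was. So does leaving out a library of a condition not compared. The direction could not change in these, so the 530 do not measure how stable it was. Precision is limited by having 2 libraries per condition.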
